A study of Mus musculus with 26 samples.

Results

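The genes described here are 37 genes of glucose use and of the response to low oxygen, picked by symbol from 24340 genes listed in each deposited table. All 37 symbols were found in both tables. They are 19 glycolytic enzymes, with both lactate dehydrogenase subunits counted among them, 3 transporters of glucose and lactate, 2 alpha subunits of hypoxia-inducible factor (HIF) and 13 other genes that HIF is known to activate. The study measured polyA RNA of whole mouse forelimbs by bulk RNA sequencing in 26 libraries, after deletion of Hic1, which encodes a transcriptional repressor, by 2 strategies. Levels are in FPKM, a fragment count scaled to transcript length and to the size of the library.

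All forelimbs were taken at E13.5. The conventional series holds 3 Hic1 +/+ libraries (wild type), 3 Hic1 +/- libraries (heterozygote) and 3 Hic1 -/- libraries (knockout), so that the allele is missing from every tissue of the knockout embryo. The conditional series holds 5 libraries with Hic1 f/+ and no Cre, which the labels call wild type and which are named controls here, 5 libraries with PxCre; Hic1 f/+ (heterozygote) and 7 libraries with PxCre; Hic1 f/f (knockout). PxCre stands for Prrx1Cre in the titles, a recombinase driven by an enhancer that is active in limb bud mesenchyme. Muscle, nerve, blood and most vessel cells of the limb have other origins, so their Hic1 is expected to stay intact there. All conditional groups carry at least 1 floxed allele. Nothing in the labels ties a replicate to its own embryo or litter, so the p-values reflect library-to-library spread, which may be technical. In whole limbs fewer cells of a type and less RNA per cell cannot be told apart.

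Glycolysis splits glucose into pyruvate, and lactate dehydrogenase turns pyruvate into lactate when it is not burned in mitochondria. HIF is a pair of an alpha and a beta subunit. Prolyl hydroxylases mark the alpha subunit for destruction when oxygen is present, so HIF is controlled mainly at the protein level and its mRNA need not move. When the alpha subunit is stable, HIF binds short elements in many of these genes, and enzymes, glucose transporters and genes such as Pdk1, Bnip3 and Vegfa are transcribed together. The embryonic limb is known for low oxygen and active glycolysis in its unvascularised cartilage condensations and distal mesenchyme.

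Hic1 followed the labels, at 49.1 to 64.2 FPKM in conventional wild type and 1.23 to 2.56 in the knockout, and at 52.4 to 65.8 FPKM in the conditional control and 2.76 to 6.16 in the knockout. All 8 limb mesenchyme markers were above 0 in each group, with summed levels of 680 to 1041 FPKM over the 26 libraries. Read totals cannot be had from FPKM. Steps between low FPKM values put the relative depth at 1.00 to 1.30 in the conventional series and at 0.58 to 1.11 in the conditional series, each against 1 library of its table. Conventional knockout replicate 1 stood apart, with a median correlation of 0.869 to the other libraries of its table where those had 0.970 to 0.982. Its difference from the wild type mean followed the GC content of the transcript, with a Spearman rho of 0.80 across 12272 genes, which are not independent replicates. Replicate 1 of wild type and of the heterozygote, whose columns carry the same letters (CH), had 0.57 and 0.56, and the libraries with the letters CL lay between -0.48 and 0.31. The class medians of the conventional knockout comparisons, and the fold changes of the members named in them, are therefore also given without this library.

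Sequence upstream of the genes was read because HIF targets share a short binding core. The core searched was ACGTG or GCGTG on either strand, which reads CACGT or CACGC on the other, and overlapping matches on the 2 strands are both counted. In RefSeq promoters (GRCm38.p6, 250 bases before to 50 after the start site nearest the deposited locus), 34 of 37 members had an entry, and Slc2a3, Epas1 and Ndrg1 had none. The core stood in 25 of the 34 (73.5%), in 12 of 19 enzymes (63.2%) and in 10 of 12 other HIF targets (83.3%), against 14380 of 32851 promoters in the whole table (43.8%). The median GC content of these windows was 63.5% in members and 52.7% in all promoters. A match is a description of the letters and no measured site. The 150 bases before the start are shown for 3 members of the glucose pathway and 3 other HIF targets that come back in the results, 5′ to 3′ on the strand of the gene, with each core in capitals.
Hk2, chr6:82774455-82774604, minus strand: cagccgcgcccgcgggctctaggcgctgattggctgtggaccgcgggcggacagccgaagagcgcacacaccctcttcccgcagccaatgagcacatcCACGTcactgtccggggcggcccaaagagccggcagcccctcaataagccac
Pgk1, chrX:106186950-106187099, plus strand: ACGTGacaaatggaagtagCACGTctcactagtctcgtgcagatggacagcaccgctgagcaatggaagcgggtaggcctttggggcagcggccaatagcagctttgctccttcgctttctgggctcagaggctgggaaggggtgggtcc
Ldha, chr7:46845654-46845803, plus strand: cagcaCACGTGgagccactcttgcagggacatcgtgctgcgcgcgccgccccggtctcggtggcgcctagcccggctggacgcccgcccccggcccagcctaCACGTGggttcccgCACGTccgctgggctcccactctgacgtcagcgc
Bnip3, chr7:138909507-138909656, minus strand: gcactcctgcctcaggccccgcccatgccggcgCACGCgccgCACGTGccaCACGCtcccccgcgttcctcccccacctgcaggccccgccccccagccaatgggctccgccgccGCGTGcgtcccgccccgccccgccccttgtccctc
Pdk1, chr2:71873074-71873223, plus strand: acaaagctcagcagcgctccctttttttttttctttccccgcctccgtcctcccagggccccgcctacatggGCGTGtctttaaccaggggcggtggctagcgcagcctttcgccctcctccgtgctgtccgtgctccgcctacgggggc
P4ha1, chr10:59323146-59323295, plus strand: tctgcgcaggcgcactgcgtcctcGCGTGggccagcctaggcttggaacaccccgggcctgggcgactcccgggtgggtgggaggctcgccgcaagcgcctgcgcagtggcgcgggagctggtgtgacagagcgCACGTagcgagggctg
The Ldha and Bnip3 windows hold 5 matches each, and the Pgk1 and P4ha1 windows hold 2 each. The Hk2 and Pdk1 windows hold 1 each. No member without a core is shown, and Pkm, Aldoa, Tpi1 and Vegfa are among those without.

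With Hic1 intact the forelimb expressed nearly the whole set, and FPKM is a level per length, so that genes may be ranked by it. In conventional wild type the pyruvate kinase gene Pkm led with 446 ± 33.0 FPKM (SD, n = 3), followed by lactate dehydrogenase A (Ldha, 380 ± 34.4) and aldolase A (Aldoa, 303 ± 22.5). Triosephosphate isomerase (Tpi1) at 284 ± 35.5 and glyceraldehyde-3-phosphate dehydrogenase (Gapdh) at 280 ± 44.1 came next and did not differ from each other beyond their spread. Among the HIF alpha subunits Hif1a stood at 48.0 ± 8.44 FPKM and Epas1, which encodes HIF-2 alpha, at 5.79 ± 0.675. Adrenomedullin (Adm) and carbonic anhydrase 9 (Car9), a pair of strongly inducible HIF targets in many cells, were the lowest, at 0.661 ± 0.242 and 0.802 ± 0.136 FPKM. Both were under a mean of 1 FPKM in each table and stayed out of the tests, which left 35 members.

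Where an enzyme step has several genes, the forelimb held a mixture led by the same gene in most families. Of the summed FPKM of lactate dehydrogenase, Ldha took 78.4% ± 0.997 in conventional wild type (SD, n = 3) and 77.8% ± 2.26 in the conditional control (n = 5). Aldoa took 99.4% of aldolase in conventional wild type, where the brain form Aldoc stood at 1.94 FPKM. Liver-type phosphofructokinase (Pfkl) took 58.0% ± 0.655, the muscle form Pfkm 38.8% ± 0.750 and the platelet form Pfkp 3.27% ± 0.219. The muscle form of phosphoglycerate mutase, Pgam2, took 46.1% ± 1.60 of its step. Hexokinase 1 (Hk1) took 65.5% ± 1.21 against hexokinase 2 (Hk2), the form that HIF is known to raise. By group mean the leading gene was the same in the reference groups of both series for these 5 families. In the conditional control Pfkl took 51.2% ± 2.58 and Pgam1 54.7% ± 4.46. Both leads were reversed in control replicate 4, where Pfkl took 47.1% and Pgam1 47.3%. The leader differed for the glucose transporters, where Slc2a1 and Slc2a3 were near equal. Slc2a1 took 51.1% ± 0.572 in conventional wild type and 47.8% ± 2.33 in the conditional control.

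The conventional knockout against wild type asks what loss of Hic1 in the whole embryo does to these genes. The 19 enzymes had a median log2 fold change of 0.41 and 18 of them were above 0, with Pfkl (0.64) and Pkm (0.60) the highest and Pgam2 (-0.12) the lowest. The 3 transporters had a median of 0.46. The 11 tested other HIF targets had a median of 0.10, with 8 above 0, and the median over all 12717 genes tested was -0.02. No member passed the threshold of an adjusted p under 0.05 in limma (0 of 35, where 0.0236% of all genes tested were called), and adjusted p ran from 0.579 to 0.999. At an unadjusted p under 0.05 there were 6 members higher, namely Hk2, Slc16a3, Pfkl, Pkm, Slc2a1 and Pgam1, and 0 lower, against 2.81% of all genes higher and 4.25% lower. Hk2 and Slc16a3 were the members whose 3 knockout libraries lay above all 3 wild type libraries (2 of 35, where 6.57% of all genes tested did so), and 0 members lay below all of them (7.86% of all genes). A fit that weights each library by its agreement with its group called 18 of the 35 members, 17 higher and Pgam2 lower, where it called 9.33% of all genes, and it gave knockout replicate 1 a weight of 0.0441 and replicate 2 one of 3.72.

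**Figure D1:**
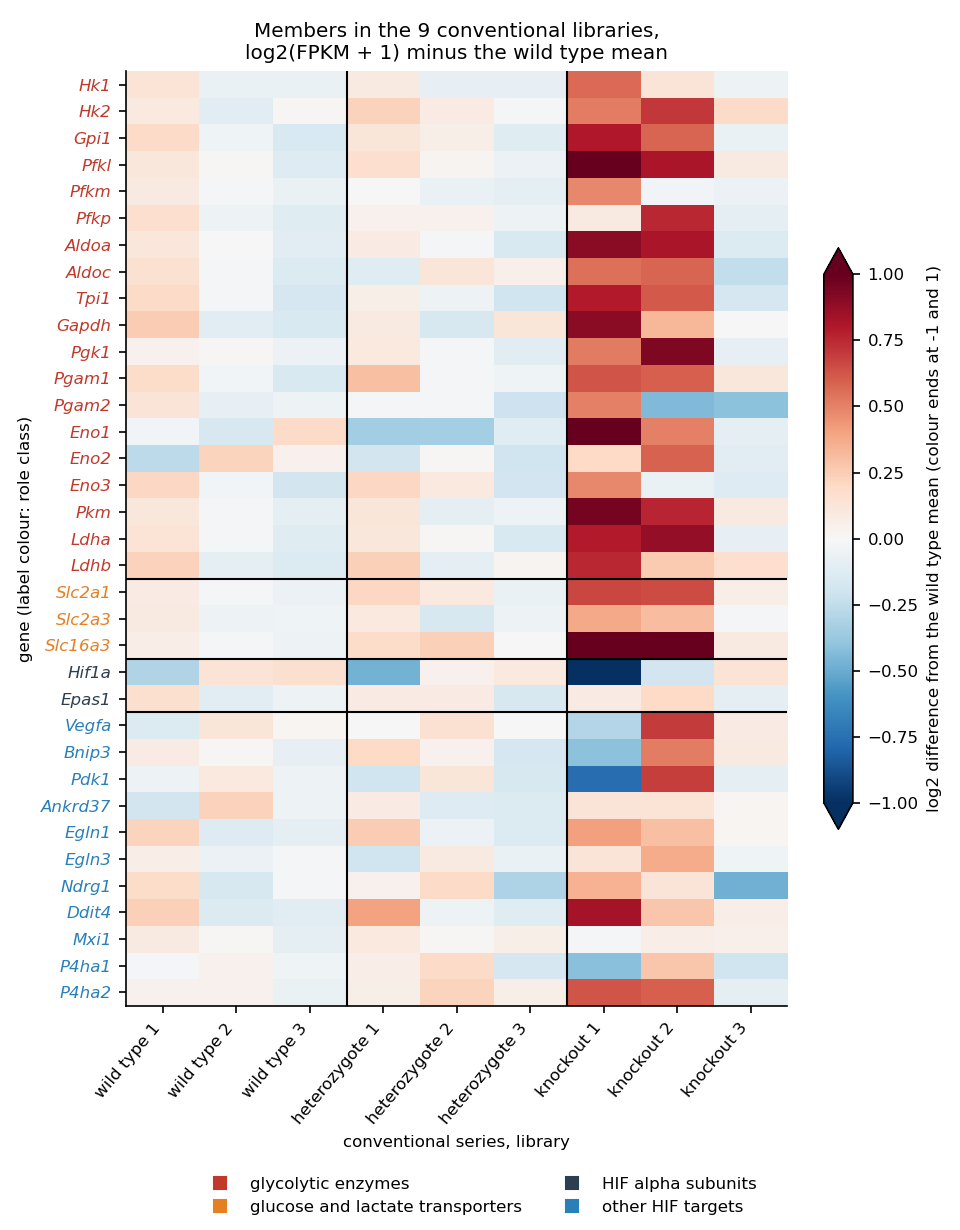
Difference of each conventional library from the wild type mean, in log2(FPKM + 1), for the 35 tested members, with red above and blue below the mean and black lines between genotypes and role classes. Most enzyme rows are red in knockout replicates 1 and 2 and near white in replicate 3, with class medians of 0.63, 0.59 and -0.08, while Hif1a, Pdk1, Bnip3, P4ha1 and Vegfa are blue in replicate 1.

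The knockout libraries differed among themselves. Knockout replicate 1 had an enzyme median 0.63 above the wild type mean, replicate 2 had 0.59 and replicate 3 had -0.08, where the wild type libraries ran from -0.12 to 0.14. The within-group SD of a member, as a median over members on the log2 scale, was 0.43 in the knockout and 0.13 in both wild type and heterozygote (0.33, 0.12 and 0.12 over all genes tested). Without replicate 1 the enzyme median was 0.24, with 16 of 19 above 0, the transporter median 0.36 and the other HIF targets' median 0.17, without replicate 2 the enzyme and target medians were 0.35 and 0.01, and without replicate 3 they were 0.62 and 0.20. In each of these fits 0 members were called, and without replicate 1 the call rate over all genes was 0.0393%. Leaving out replicate 1 left 3 members higher in the knockout without overlap with wild type, where 11.6% of all genes then were. Pgam2 went the other way, at 13.4 and 13.7 FPKM in replicates 2 and 3 against 17.6 to 20.4 in wild type. The share of all genes lower in this way was not counted.

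Among the early enzymes, Hk2 traps glucose in the cell as glucose-6-phosphate. Its level was 13.1, 11.1 and 12.2 FPKM in wild type replicates 1 to 3, 14.4, 12.9 and 12.0 in the heterozygote, and 17.8, 20.5 and 13.9 in the knockout. The knockout libraries were all above wild type, replicate 3 by the least, and the log2 fold change was 0.47 ± 0.15 (SE, 95% interval 0.12 to 0.82, adjusted p = 0.579). Hk1, which has little response to oxygen in most cells, stood at 25.6, 22.0 and 21.9 FPKM in wild type and 34.7, 25.3 and 22.2 in the knockout (log2 fold change 0.21 ± 0.16). Its groups overlapped. Hk2 thus took 33.9%, 44.7% and 38.6% of summed hexokinase FPKM in the 3 knockout libraries.

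Pfkl, the liver form of the enzyme that commits sugar to glycolysis, stood at 62.2, 58.0 and 52.6 FPKM in wild type and at 117, 102 and 61.3 in the knockout. Knockout replicates 1 and 2 were far above wild type, and replicate 3 fell inside its range. The log2 fold change was 0.64 ± 0.22 (95% interval 0.14 to 1.14, adjusted p = 0.596). Pfkm, the muscle form, had a log2 fold change of 0.13 ± 0.15, and Pfkp had 3.51, 6.11 and 2.99 FPKM in the knockout against 2.90 to 3.76 in wild type, high in replicate 2 alone.

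In the lower pathway, Pkm, which makes pyruvate, had 482, 438 and 418 FPKM in wild type and 864, 757 and 475 in the knockout, a log2 fold change of 0.60 ± 0.21 (adjusted p = 0.596). Pgam1, the general phosphoglycerate mutase, had 24.8, 21.3 and 19.4 FPKM in wild type and 34.2, 33.5 and 23.5 in the knockout (0.45 ± 0.17, adjusted p = 0.596). Both again overlapped wild type through replicate 3. Ldha, Pgk1, Vegfa, Bnip3, Pdk1, P4ha1, Car9, Gapdh and the muscle forms are named in what follows after their values were seen. Ldha had 417, 373 and 349 FPKM in wild type and 657, 698 and 359 in the knockout, and phosphoglycerate kinase (Pgk1), a textbook HIF target, had 57.1, 55.9 and 53.3 against 80.0, 106 and 52.3. For both, the highest of the 9 conventional libraries was knockout replicate 2, and replicate 3 was below the wild type range for Pgk1 and inside it for Ldha. Their log2 fold changes were 0.53 ± 0.24 and 0.46 ± 0.22. Aldoa (0.52), glucose-6-phosphate isomerase (Gpi1, 0.44), Tpi1 (0.41), Gapdh (0.41), lactate dehydrogenase B (Ldhb, 0.40), Aldoc (0.29) and Eno2 (0.23), the neuronal enolase, had positive values too, and each of these 7 overlapped wild type. Eno1, Eno3 and Pgam2, the remaining enzymes, are described further on.

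Transporters had the pattern of the enzymes. Slc16a3 (GRCm38 chromosome 11, 120948480 to 120960868, plus strand) encodes MCT4, which exports lactate and is a HIF target, and it had 24.8, 23.4 and 22.7 FPKM in wild type, 27.0, 28.1 and 23.6 in the heterozygote and 49.9, 48.4 and 25.3 in the knockout. Its log2 fold change of 0.71 ± 0.24 (95% interval 0.17 to 1.26, adjusted p = 0.596) was the highest of the members. Slc2a1 encodes the glucose transporter GLUT1 and had 50.4, 47.1 and 45.6 FPKM in wild type and 76.3, 75.2 and 50.2 in the knockout (0.46 ± 0.17, adjusted p = 0.596). GLUT3, encoded by Slc2a3, had 48.6, 43.9 and 44.4 against 59.5, 57.0 and 45.3 (0.23 ± 0.13, adjusted p = 0.596). For all 3 transporters knockout replicates 1 and 2 were the highest of the 9 conventional libraries, and for Slc16a3 replicate 3 lay above wild type too.

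**Figure D2:**
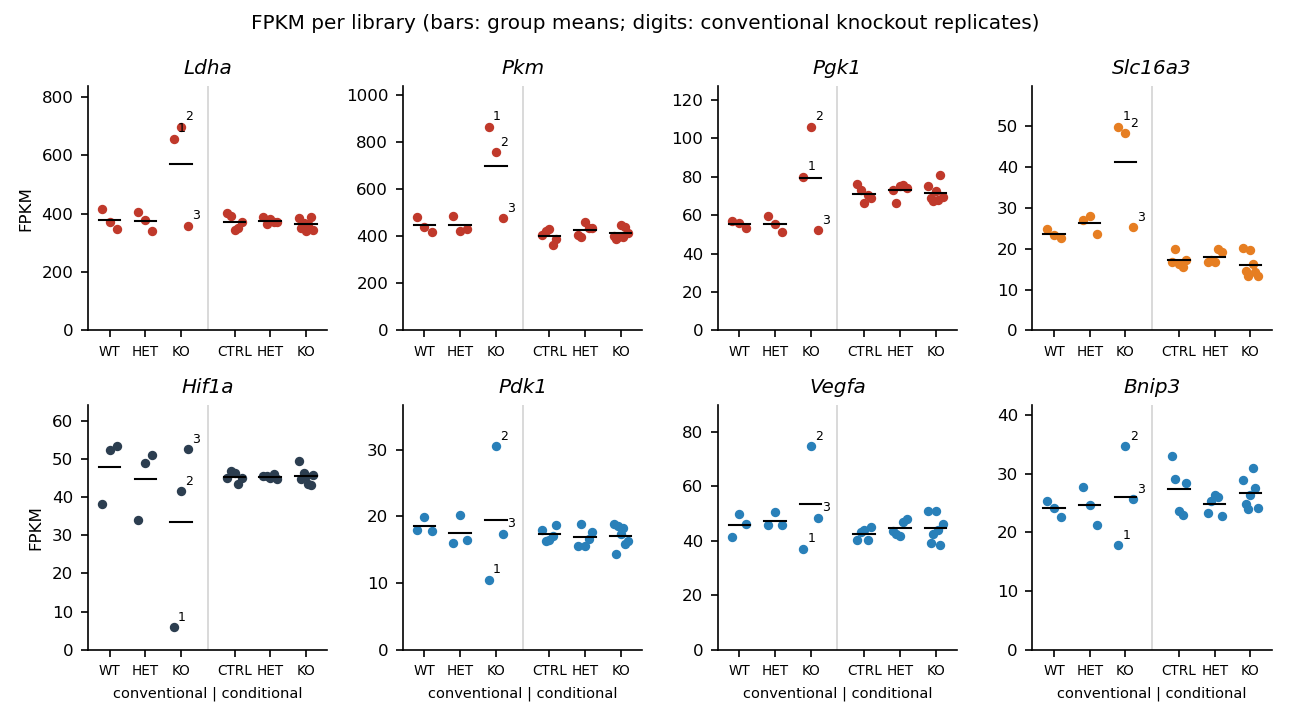
FPKM per library of 8 members in the 6 genotype groups, each dot a library, bars the group means and digits the replicate numbers of the conventional knockout, with axes starting at 0. Ldha, Pkm, Pgk1 and Slc16a3 are high in knockout replicates 1 and 2, Pdk1, Vegfa and Bnip3 are high in replicate 2 and low in replicate 1, and the conditional groups overlap for each gene.

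Of the HIF alpha subunits, Hif1a (GRCm38 chromosome 12, 73901375 to 73947530, plus strand) had 38.2, 52.4 and 53.3 FPKM in wild type, 34.1, 48.8 and 50.9 in the heterozygote and 6.04, 41.5 and 52.6 in the knockout. Replicate 1 was the lowest library of each genotype, and by far the lowest in the knockout. The log2 fold change of -0.94 ± 0.67 had a 95% interval of -2.47 to 0.58 and an adjusted p of 0.596, and it was -0.02 without knockout replicate 1 and -0.28 with library weights. Epas1 had 6.56, 5.28 and 5.53 FPKM in wild type and 6.13, 6.76 and 5.34 in the knockout, which overlapped (0.06 ± 0.13, adjusted p = 0.797). Hif1a thus took 49.6% of the summed HIF alpha FPKM in knockout replicate 1 and 84.7% or more in the other 8 conventional libraries. Among 12 partners of oxygen sensing (HIF beta subunits, other regulators, the VHL ubiquitin ligase and cofactors) 0 were called. Their median log2 fold change was 0.14. At an unadjusted p under 0.05, 1 was higher and 0 lower, against 2.81% and 4.25% of all genes. Without overlap, 2 were higher (Hif3a and Arnt2) and 1 lower (Arnt), against 6.57% and 7.86% of all genes. Arnt, a beta subunit, had 32.2, 32.3 and 34.1 FPKM in wild type and 21.6, 31.8 and 30.8 in the knockout. Arnt and Arnt2 were named after their values were seen. Hif3a, which encodes a further alpha subunit, had 12.1, 11.9 and 11.6 FPKM in wild type and 17.1, 15.5 and 12.6 in the knockout, with no overlap (0.31 ± 0.13, adjusted p = 0.596). Cul2, named after its values were seen as the scaffold of the VHL ligase, had 11.0, 17.7 and 17.6 FPKM in wild type and 2.01, 12.8 and 17.2 in the knockout, low in replicate 1 as Hif1a was.

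The other HIF targets differed among themselves. P4ha2 and P4ha1 encode collagen prolyl 4-hydroxylase subunits. P4ha2 had 25.4, 25.5 and 23.5 FPKM in wild type and 39.0, 38.2 and 23.1 in the knockout (log2 fold change 0.38 ± 0.19, adjusted p = 0.596), the same pattern as the enzymes, whereas P4ha1 had 40.1, 41.6 and 39.3 against 29.8, 49.0 and 34.9, with replicate 1 the lowest. Ddit4, a stress-induced inhibitor of mTORC1 signalling, had 76.2, 58.4 and 59.7 FPKM in wild type and 115, 78.3 and 67.4 in the knockout (0.39 ± 0.22, adjusted p = 0.596). Heterozygote replicate 1 had 85.3 FPKM, so that Ddit4 was highest in replicate 1 of all 3 genotypes.

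The prolyl hydroxylases Egln1 and Egln3 mark HIF alpha for destruction and are themselves induced by HIF. Egln1 had 34.3, 26.6 and 27.3 FPKM in wild type and 39.2, 36.2 and 29.7 in the knockout (0.25 ± 0.16, adjusted p = 0.596). Egln3 had 5.06, 4.53 and 4.69 against 5.28, 6.46 and 4.60 (0.15 ± 0.14, adjusted p = 0.597). Both groups overlapped. Ankrd37 and Ndrg1, induced by low oxygen in many cells, and Mxi1, an antagonist of MYC, had log2 fold changes of 0.10 ± 0.14, -0.00 ± 0.23 and 0.03 ± 0.10.

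Pdk1, Bnip3 and Vegfa set replicates 1 and 2 of the knockout apart. Pdk1 encodes a kinase that holds pyruvate out of mitochondria, and it had 17.9, 19.9 and 17.8 FPKM in wild type and 10.5, 30.5 and 17.4 in the knockout. Bnip3, which promotes mitophagy, had 25.4, 24.2 and 22.7 in wild type and 17.8, 34.7 and 25.7 in the knockout. The angiogenic factor Vegfa had 41.6, 49.9 and 46.4 in wild type and 37.2, 74.8 and 48.6 in the knockout. For all 3 genes the lowest and the highest of the 9 conventional libraries were knockout replicates 1 and 2, and the group means gave log2 fold changes of -0.05 ± 0.31, 0.06 ± 0.22 and 0.16 ± 0.22. Car9, under the test's limit, had 1.19, 2.42 and 0.584 FPKM in the knockout against 0.679 to 0.949 in wild type.

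Without knockout replicate 1 the log2 fold changes against wild type were closer to 0 for most enzymes and transporters. They were 0.45 for Hk2 and Pfkl, 0.43 for Pkm, 0.42 for Pgk1, 0.40 for Ldha and 0.36 for Pgam1. Hk1 was near 0 at 0.04, Aldoa stood at 0.34, Gpi1 at 0.26, Tpi1 and Ldhb at 0.22, and Gapdh and Aldoc at 0.17. Eno1 was at 0.20, Eno2 at 0.24, Pfkp at 0.33, and Pfkm (-0.04), Eno3 (-0.10) and Pgam2 (-0.43) were below 0. Among transporters Slc16a3 was at 0.55, Slc2a1 at 0.36 and Slc2a3 at 0.15. The other HIF targets parted into members that were lower without replicate 1, namely P4ha2 (0.25), Ddit4 (0.17) and Egln1 (0.16), and members that were higher, namely Vegfa (0.39), Bnip3 (0.30) and Pdk1 (0.30). Of the remaining members, Egln3 was at 0.17, Ankrd37 at 0.08, Mxi1 at 0.06, Epas1 at 0.05, P4ha1 at 0.04 and Ndrg1 at -0.17. None of these passed the test, and Pgam2 had the smallest adjusted p, 0.174.

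Library by library, knockout replicate 2 was above the wild type mean for 11 of 11 tested other HIF targets (median 0.30), for 16 of 19 enzymes and for 3 of 3 transporters. It was the highest of the 9 conventional libraries for 12 of 35 members (34.3%) and for 5 of 11 other HIF targets (45.5%), where it was highest for 5.93% of all genes tested. In a further list of 23 HIF targets that are no members it was highest for 9 (39.1%) and above the wild type mean for 18. It was highest for 0 of 16 citric acid cycle genes and for 0 of 17 respiratory chain genes. Knockout replicate 1 already held the top for 12 and 13 of them. Replicate 2 lay above the wild type mean for 9 of the 16 and 6 of the 17. Its correlation to the other libraries was 0.979, and its Spearman rho with GC was 0.31 across 12272 genes and 0.10 across the 35 members.

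Knockout replicate 1 was highest for 13 of 19 enzymes (68.4%), but also for 42.8% of all genes tested, and lowest for 39.6%. Citric acid cycle genes (12 of 16, 75%) and respiratory chain genes (13 of 17, 76.5%) were highest there about as often as the enzymes. Across the 35 members its difference from wild type had a Spearman rho of 0.75 with GC, and the members with the lowest GC, Hif1a (41.3%) and Bnip3 (41.6%), lay below wild type. After the GC trend over all genes was taken out of each library, a step added after the data were seen, the enzyme medians of knockout replicates 1 to 3 were 0.38, 0.55 and -0.02 and the other HIF targets' medians were 0.15, 0.30 and 0.01. Bnip3 in replicate 1 then stood 0.85 above the wild type mean in place of -0.41, Hif1a stood at -1.48 in place of -2.78, and Vegfa stayed below at -0.43. Knockout replicate 3 was highest for 0 of 35 members and lay above the wild type mean for 15.

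**Figure D3:**
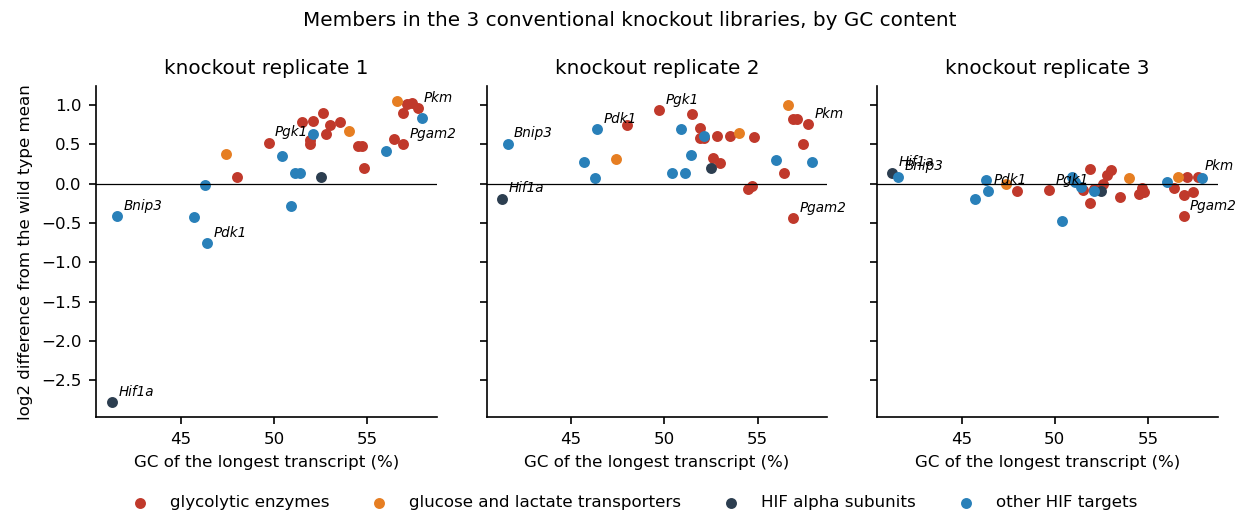
Difference from the wild type mean, in log2(FPKM + 1), against the GC content of the longest GENCODE transcript for the 35 tested members in each conventional knockout library, coloured by role class. In replicate 1 the members climb with GC (rho 0.75), in replicate 2 both low and high GC members lie above 0 (rho 0.10), and in replicate 3 they lie around 0 (rho 0.01).

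The letters in the column names (CH for replicate 1, CL for replicates 2 and 3) split the comparison, and the meaning of the letters is not stated. With CH alone, 1 library against 1, the enzyme median was 0.48 and that of the other HIF targets 0.05. With CL alone, 2 against 2, they were 0.33 and 0.27. Markers of other cells differed between the same libraries. The 3 primitive erythroid globins summed to 5590 FPKM in knockout replicate 1, 3991 in replicate 2 and 2555 in replicate 3, against 2139 to 2440 in wild type and 2840 to 2903 in the heterozygote. The 14 contractile muscle markers summed to 1834, 1097 and 1134 FPKM in the 3 knockout libraries and to 1540 to 1805 in wild type. Their median log2 fold change was -0.38, with 14 of 14 below 0. Of these, 5 were lower at an unadjusted p under 0.05 (4.25% of all genes), and 5 lay below all wild type libraries (7.86% of all genes). The 8 endothelial markers summed to 106 to 135 FPKM in the knockout and 110 to 133 in wild type. Neuron markers summed to 31.7, 32.7 and 35.7 FPKM in the 3 knockout libraries and to 40.0 to 44.7 in wild type, without overlap. Of the 5 tested, 4 were lower at an unadjusted p under 0.05 (median log2 fold change -0.57), where 4.25% of all genes were. At that threshold 3 of 3 primitive erythroid globins were higher, where 2.81% of all genes were, and 1 of 8 endothelial markers was lower. The definitive erythroid list, with 5 genes tested, had a median log2 fold change of -0.03, with 0 higher and 1 lower at that threshold. Its sums were 354 to 758 FPKM in the knockout and 456 to 553 in wild type. Over the 9 conventional libraries the Pearson correlation with summed neuron markers was -0.82 for Pkm, -0.81 for Hk2 and Eno1 and -0.80 for Slc16a3. The highest of the tested members was Hif1a, at 0.56. Over the 17 conditional libraries Pkm, Hk2, Eno1 and Slc16a3 had -0.45, -0.41, -0.25 and -0.22. These correlations are descriptions over libraries that share the genotype groups. In the conditional knockout against control, 1 of 6 tested neuron markers was called lower in limma, where 0.263% of all genes were called. At an unadjusted p under 0.05, 3 of the 6 were lower (3.27% of all genes). Their median log2 fold change was -0.14, with 2 above 0, and the enzyme median there was 0.01. Enzyme medians of conventional knockout replicates 1 to 3 were 0.63, 0.59 and -0.08.

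Cartilage and epidermis markers were mostly lower in the knockout. Cartilage markers had a median log2 fold change of -0.31 with 9 of 11 below 0. At an unadjusted p under 0.05, 4 were lower (4.25% of all genes), and 4 lay below all wild type libraries (7.86% of all genes). Their sums were 1517, 1071 and 999 FPKM in the knockout against 1265 to 1317 in wild type. Replicate 1 was thus above wild type and the others were below. Epidermis markers had a median of -0.28 with 7 of 7 below 0, and sums of 272 to 446 FPKM against 336 to 413. Of these 7, 2 were lower at an unadjusted p under 0.05, and 4 lay below all wild type libraries, against the same shares of all genes. Of the limb mesenchyme markers, 5 of 8 were above 0 (median 0.12), with sums of 760 to 862 FPKM against 747 to 792. At an unadjusted p under 0.05, 3 were higher (2.81% of all genes), and 4 lay above all wild type libraries (6.57% of all genes). No marker of these lists was at 0 in either group. The part of these cells and of the library in the enzyme medians was not tested.

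Among the muscle forms of the enzymes, Pgam2 and Eno3 ran with muscle markers instead. Pfkm had Pearson correlations with the summed muscle markers of 0.48 over the 9 conventional libraries and -0.05 over the 17 conditional ones. Pgam2 and Eno3, the beta enolase of muscle, had Pearson correlations of 0.89 and 0.65 with the summed muscle markers over the 9 conventional libraries and of 0.85 and 0.92 over the 17 conditional ones, as a description on the log2 scale over libraries that share a tissue and a depth. In the conventional knockout Pgam2 had 26.7, 13.4 and 13.7 FPKM against 20.4, 17.6 and 17.9 in wild type, and Eno3 had 39.4, 26.7 and 25.5 against 32.6, 27.4 and 24.6. Without Pfkm, Pgam2, Eno3, Eno2 and Aldoc the enzyme median of the comparison was 0.45 in place of 0.41.

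In the conventional heterozygote the members' log2 fold changes against wild type lay between -0.27 and 0.14. Enzymes had a median of -0.00, transporters 0.08, other HIF targets 0.02 and all genes tested 0.01. In limma 0 members were called (0.00% of all genes), with 0 at an unadjusted p under 0.05 in either direction (0.212% of all genes higher and 0.157% lower). The widest 95% interval, that of Hif1a, ran from -1.64 to 1.42. P4ha2, at 25.9, 28.9 and 25.9 FPKM, was the 1 member of 35 with its heterozygote libraries all above wild type, where 2.43% of all genes tested were, and 0 members were all below (1.38%). The knockout against the heterozygote, which shares its knockout libraries with the first comparison, had medians of 0.37 for enzymes, 0.38 for transporters and 0.11 for other HIF targets. Without knockout replicate 1 these were 0.28, 0.28 and 0.14, and Eno1 was at 0.47. Again 0 members were called (0.00786% of all genes), 6 were higher at an unadjusted p under 0.05 (4 enzymes and 2 transporters, against 1.34% of all genes) and 0 lower (3.24%), and adjusted p ran from 0.697 to 0.970. Eno1 was the 1 member with its knockout libraries all above the heterozygote (3.72% of all genes), and 0 were all below (6.21%). Weighting the libraries called Pkm alone (1 of 35, where 1.27% of all genes were called).

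The conditional knockout against control asks the same question when Hic1 is deleted in the cells that have had the Cre. Here the knockout and control libraries overlapped for every member. Enzymes had a median log2 fold change of 0.01 with 12 of 19 above 0, transporters 0.05, HIF alpha subunits -0.01 and other HIF targets -0.01, and no member was called (0 of 35, where 0.263% of all genes tested were). At an unadjusted p under 0.05 there were 0 members higher (2.93% of all genes) and 1 lower (3.27% of all genes), and 0 members had groups without overlap (background 0.364% of all genes higher and 0.325% lower). The 95% intervals of the members lay between -0.32 and 0.45, and those of the conventional knockout between -2.47 and 1.26.

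**Figure D4:**
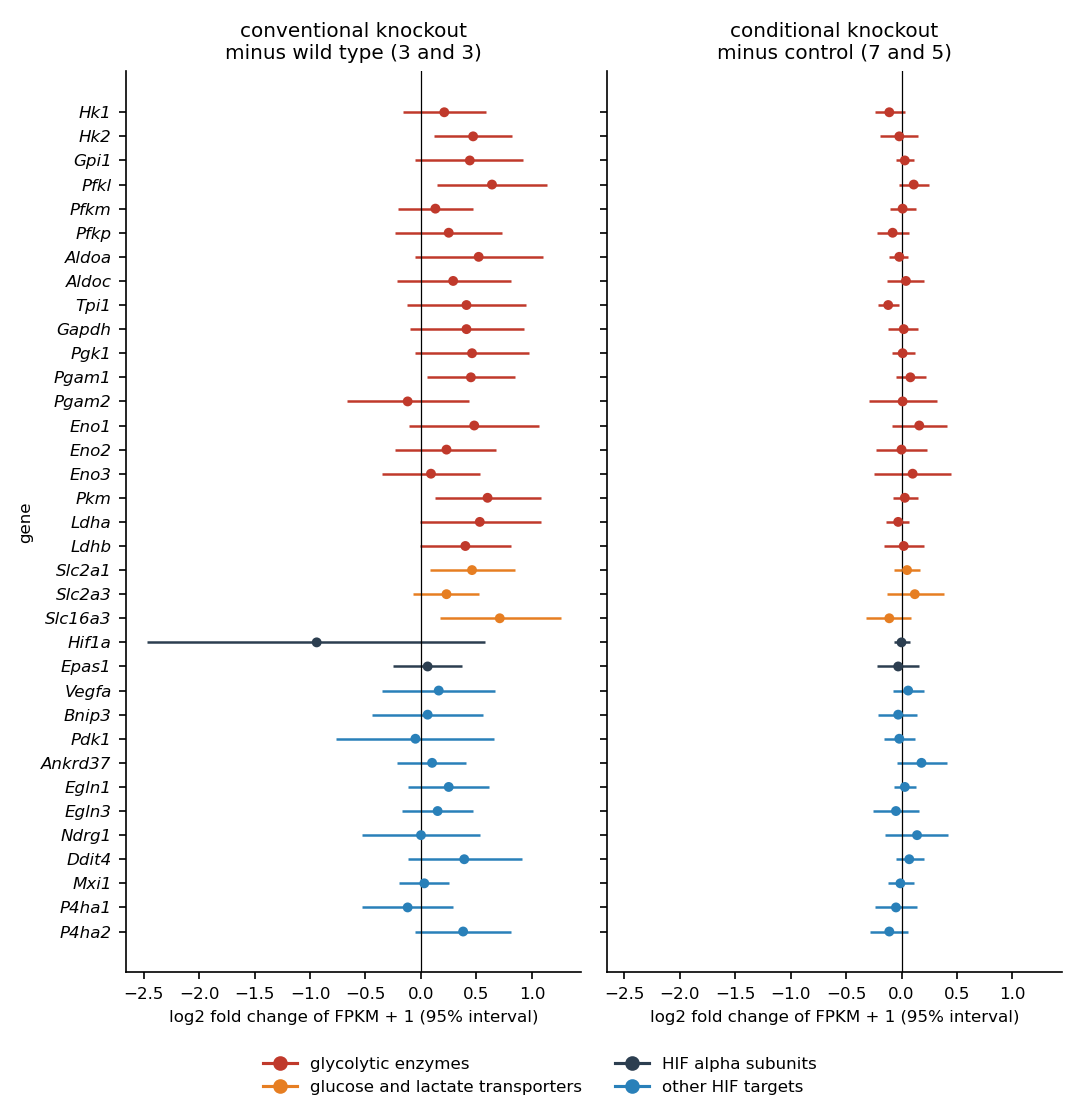
Log2 fold change of FPKM + 1 with its 95% interval from limma for the 35 tested members, conventional knockout minus wild type on the left and conditional knockout minus control on the right, coloured by role class. Most enzymes lie right of 0 on the left with wide intervals (median 0.41), and all members lie between -0.12 and 0.18 on the right.

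Tpi1 was the member lower at an unadjusted p under 0.05. It had 292, 299, 265, 266 and 273 FPKM in the control and from 246 over a median of 254 to 274 in the 7 knockout libraries. Its groups overlapped, and the log2 fold change was -0.12 ± 0.05 (95% interval -0.21 to -0.02, adjusted p = 0.579). Pfkl stood at 35.1, 38.9, 38.7, 30.7 and 36.6 FPKM in the control and from 34.5 over a median of 38.3 to 44.1 in the knockout, which overlapped (0.11 ± 0.06, adjusted p = 0.909). Hk1 had a log2 fold change of -0.11 ± 0.07 (adjusted p = 0.930), and Hk2, Pkm and Pgam1 had -0.02 ± 0.08, 0.03 ± 0.05 and 0.08 ± 0.06. Ldha and Pgk1 had -0.03 ± 0.05 (95% interval -0.14 to 0.07) and 0.01 ± 0.05 (-0.09 to 0.12).

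Hif1a stood at 43.3 to 46.9 FPKM in the conditional control, 44.7 to 46.1 in the heterozygote and 43.1 to 49.4 in the knockout, where the 3 ranges overlap. Its log2 fold change was 0.00 ± 0.04 (95% interval -0.07 to 0.08, adjusted p = 1.00), and that of Epas1 was -0.03 ± 0.09 (adjusted p = 1.00). Of the transporters, Slc16a3 had a mean of 17.2 ± 1.70 FPKM in the control and 16.0 ± 2.92 in the knockout (-0.11 ± 0.10, adjusted p = 0.984), Slc2a1 had 43.0 ± 2.61 and 44.6 ± 3.65 (0.05 ± 0.06, adjusted p = 1.00), and Slc2a3 had 46.9 ± 3.96 and 51.7 ± 9.41 (0.12 ± 0.12, adjusted p = 0.994). All 3 overlapped.

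Among the other HIF targets Ankrd37 had the largest difference, with 6.55, 8.92, 6.96, 7.38 and 6.20 FPKM in the control and from 6.91 over a median of 8.41 to 9.93 in the knockout (0.18 ± 0.11, adjusted p = 0.923). Its groups overlapped. Ddit4 (0.07 ± 0.06), P4ha2 (-0.11 ± 0.08), Ndrg1 (0.14 ± 0.14), Egln1 (0.03 ± 0.05) and Egln3 (-0.05 ± 0.10) lay on either side of 0, and Pdk1, Bnip3 and Vegfa had -0.02 ± 0.07, -0.03 ± 0.08 and 0.06 ± 0.07. Car9 was at 0.283 to 0.787 FPKM in the control and 0.223 to 0.773 in the knockout. Muscle markers summed to 856 to 2647 FPKM over the conditional knockout libraries and to 1671 to 2461 in the control.

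The conditional heterozygote, which has Cre and an intact allele, had medians of 0.03 for enzymes and 0.04 for other HIF targets against the control. No member was called in limma (0.00774% of all genes), and Pfkl and Pgam1 were higher at an unadjusted p under 0.05 (2 of 35, against 2.79% of all genes), with 0 lower (2.83%). Pgam1 had 27.0 to 30.7 FPKM in the heterozygote and 21.9 to 31.2 in the control. The knockout against the heterozygote compares libraries that all carry Cre and had medians of -0.04 and -0.02, with 0 members called (0.0774% of all genes), 0 higher at an unadjusted p under 0.05 (2.74%) and 2 lower, Pfkp and Tpi1 (1.89%). Pfkp was lower in all 7 knockout libraries (1.62 to 2.16 FPKM) than in the 5 heterozygote libraries (2.17 to 2.63), with a log2 fold change of -0.19 ± 0.07 and an adjusted p of 0.930, the 1 member without overlap where 0.132% of all genes tested had none in that direction. These conditional comparisons share their libraries, as the conventional ones do.

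**Figure D5:**
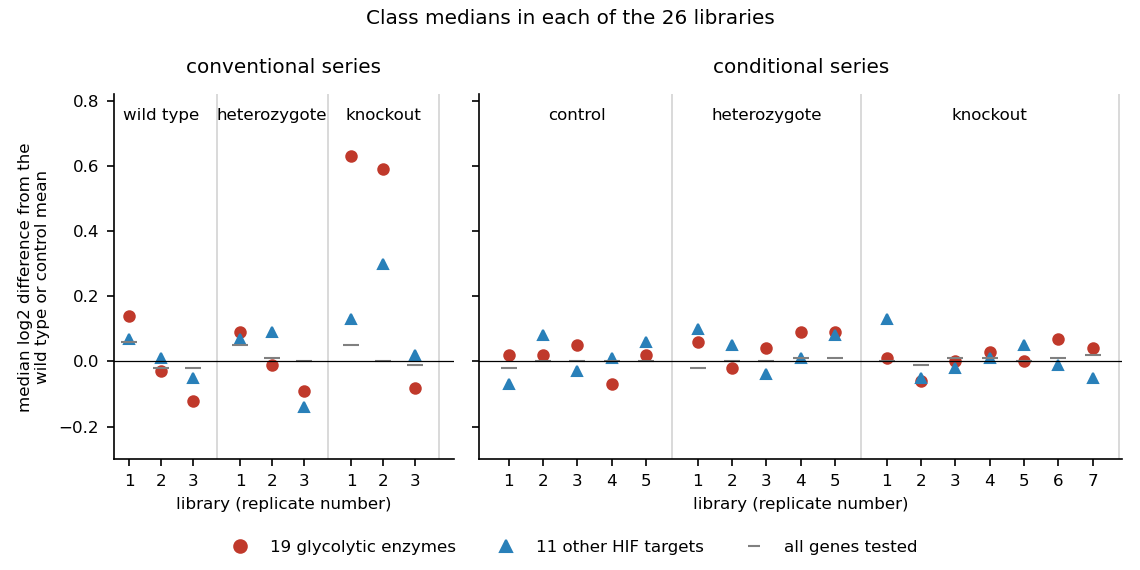
Median log2 difference from the wild type or control mean in each of the 26 libraries, for the 19 enzymes (circles), the 11 tested other HIF targets (triangles) and all genes tested (grey bars), by genotype and replicate. The enzyme median is 0.63 and 0.59 in conventional knockout replicates 1 and 2 and between -0.12 and 0.14 in the other 24 libraries.

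The conditional libraries did not hold a library like conventional knockout replicates 1 and 2. Enzyme medians ran from -0.07 to 0.05 in the control, -0.02 to 0.09 in the heterozygote and -0.06 to 0.07 in the knockout, and other HIF targets from -0.05 to 0.13 in the knockout. The primitive erythroid globins summed to 2560 to 4196 FPKM in the control and 2630 to 4562 in the knockout. Conditional columns carry 4 letter pairs. Within NZ (2 knockout and 2 control libraries) the enzyme median was -0.01, and within OB (5 and 1) it was -0.03. The within-group SD of a member was 0.10 to 0.13 in the 3 conditional groups and 0.11 to 0.12 over all genes tested. The tables were normalised separately, so the difference between the conventional and the conditional knockout was not tested.

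Neighbouring pathways were read from lists. In the conventional knockout against wild type 0 of 16 citric acid cycle genes, 0 of 17 respiratory chain genes, 0 of 11 genes of pyruvate dehydrogenase and its kinases, 0 of 7 pentose phosphate pathway genes and 0 of 23 further HIF targets were called in limma, in either direction, and 0 passed an unadjusted p under 0.05. Their medians were 0.13, 0.18, -0.15, 0.23 and -0.02. Slc2a4 and G6pc3, of another glycolysis and gluconeogenesis list with 10 of 22 genes tested, were higher at an unadjusted p under 0.05, at 13.0 ± 3.33 and 20.9 ± 5.25 FPKM against 8.97 ± 0.599 and 15.3 ± 0.968 in wild type (SD, n = 3; adjusted p = 0.596 for both). Pgm1, a phosphoglucomutase of that list, was lower at an unadjusted p under 0.05, at 15.2 to 21.2 FPKM in the knockout against 22.6 to 24.4 in wild type, without overlap (log2 fold change -0.30 ± 0.13, adjusted p = 0.596). These are 2 of 10 higher and 1 of 10 lower, against 2.81% and 4.25% of all genes tested, and Pgm1 was named after its values were seen. In the conditional knockout against control the same 5 lists had 0 calls (0.263% of all genes) and medians of 0.00, 0.01, -0.00, -0.04 and -0.00. At an unadjusted p under 0.05, 1 of 7 pentose phosphate pathway genes was higher and 1 lower. Of the 23 further HIF targets 1 was lower, and the remaining lists had 0 (2.93% of all genes higher and 3.27% lower). Plod1, a collagen lysyl hydroxylase and HIF target, had 28.1 ± 2.07 FPKM in the control (n = 5) and 23.4 ± 2.93 in the knockout (n = 7), a log2 fold change of -0.26 ± 0.08 and an adjusted p of 0.415.

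Some members share reads or position with other genes, and the strand setting of the counting is not given in the sources used here. Eno1, the general enolase, stood at 44.9 ± 4.32 FPKM in the conditional control, and its listed copy Eno1b at 222 ± 11.4, so reads that fit both may be split between them. In the conventional knockout Eno1 had a log2 fold change of 0.48 ± 0.25 and Eno1b one of 0.64 ± 0.29, both with an adjusted p of 0.596. Eno1 is therefore uncertain. Gapdh, which has many processed copies in the mouse genome, was listed at 280 ± 44.1 FPKM in conventional wild type and 678 ± 40.2 in the conditional control, 2.42 times as much, where the median ratio of the 37 members was 0.901. The deposited locus of Pdk1 also covers Metap1d, Hat1, Itga6 and Dlx1 on its own strand, which the strand would not tell apart, and Dlx2 on the other. Those of Pfkm, Pfkp, Tpi1, Ankrd37 and Hk1 overlap a gene on the opposite strand. Reads of opposite-strand partners cannot be told apart without the strand.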

How the data were processed

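Polyadenylated RNA of E13.5 mouse forelimbs was sequenced in 26 libraries. The authors deposited 2 tables of FPKM, 1 per series, and the column names and the series text give that unit. The tools named per the submitters' processing notes are Cufflinks, TopHat2 with Bowtie2, and bcl2fastq, and the build is mm10; versions, annotation and any scaling beyond FPKM are not given in the sources used here. Each table lists 24340 genes and 1 empty line, and 27 gene symbols that had become dates in the conditional table were restored from the matching line of the conventional table. No read counts were given, so precision cannot be put as a counting error, and the spread between libraries stands in for it.

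The 2 tables were fitted apart with limma 3.58.1 (R 4.3.3) on log2(FPKM + 1), keeping genes whose mean reached 1 FPKM (12717 conventional, 12918 conditional), with the 3 genotypes sharing 1 estimate of the spread, a mean trend and Benjamini-Hochberg adjustment over all genes tested. Fold changes on this scale understate low genes. The fit was tested on simulated data. The members and all lists were chosen with earlier results of these data known, so their medians and counts are descriptions. Values per library are given for up to 4 members of each role class with the smallest p in a knockout comparison. They are also given for Hif1a, Epas1 and Hic1, and for members named in the text as chosen after their values were seen. Up to 2 genes of another list, or 3 if called, could be named. Further genes of those lists are marked as named after their values were seen. Deviations of same-numbered conventional libraries correlated at 0.24 to 0.72 in 9 of 9 pairs. Differently numbered pairs ran from -0.70 to 0.51, with 6 of 18 over 0.1. Number 1 coincides with the letters CH, so number and letters cannot be told apart there. In the conditional series 4 of 15 same-numbered pairs and 21 of 80 others were over 0.1. The main fit had no replicate block. Transcript GC and positions come from GENCODE M21, promoters from RefSeq. Alternatives were another pseudocount, filter, scaling, array weights, a replicate block, the column letters as a batch, each library left out and, added after the data were seen, removal of the GC trend.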

Additional observations from a re-analysis of the deposited data

Results flagged for a closer look

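Of 111 groups of 5 or 7 conditional libraries checked, a gene at a time, 8 held a library far from the others of its group, and chance gives such a gap in about 1 of 20 groups. Slc2a3 stood at 71.5 FPKM in knockout replicate 6, where the other 6 had 42.6 to 54.2, and at 53.8 in control replicate 1, where the others had 44.4 to 46.8. P4ha1 stood at 43.1 in knockout replicate 1, against 26.7 to 32.8. Knockout replicate 4, the library with the lowest muscle marker sum (856 FPKM), had the lowest Egln3 of its group, 2.50 against 3.46 to 4.06, and the highest Mxi1, 11.3 against 9.32 to 9.91. Eno2, the neuronal enolase, stood at 3.53 in knockout replicate 3, against 2.25 to 2.63, and at 1.63 in heterozygote replicate 3, against 2.52 to 2.87. Eno1 stood at 37.4 in control replicate 4, against 45.3 to 48.4. No member had all conventional knockout libraries on one side of the wild type mean and all conditional knockout libraries on the other side of the control mean. Groups of 3 libraries were not checked this way.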

How the results depend on the processing

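The call of 0 members held in all 6 comparisons under another pseudocount (0.1), no filter, TPM or median-ratio scaling, a fit of the 2 groups alone, the column letters as a batch, removal of the GC trend and each library left out. Array weights changed it: 18 members were called in the conventional knockout against wild type (17 higher, Pgam2 lower, beside 1186 of all genes) and 1, Pkm, against the heterozygote (beside 162 of all genes), and the other HIF targets' median was 0.34 and 0.30. These weights gave knockout replicate 1 a weight of 0.0441, replicate 2 one of 3.72 and replicate 3 one of 0.808, so that the contrast rested on replicate 2. With the replicate block the conventional knockout had 0 members called and medians of 0.41 and 0.10, as without it, and the block changed no call of a member in the other comparisons. Leaving out 1 library at a time, the conventional knockout against wild type had enzyme medians of 0.24 to 0.62 and other HIF targets' medians of 0.01 to 0.20; against the heterozygote these were 0.28 to 0.55 and -0.04 to 0.20, with -0.04 without knockout replicate 2. In the conditional knockout against control they were -0.01 to 0.03 and -0.01 to 0.02. The cause of these moves was not tested. Over all genes, the 3 calls of the conventional knockout against wild type were 1 under no filter, the 2 groups alone or the block, 8 with the letters and 20 after GC removal, and the 34 of the conditional knockout against control were 125 with array weights, as the 10 of the conditional knockout against heterozygote were 27. Signs of uncalled values near 0 are not counted as reversals, and no called value reversed. Unknown depth limits what can be said of Adm, Car9 and other low members.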
